A study of Homo sapiens with 2 samples.

Results

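The signal from growth factor receptors and integrins through RAS to the kinase ERK is held in check by genes that the pathway itself induces. Dual-specificity phosphatases (DUSP) remove phosphate from the activated MAP kinases ERK, p38 and JNK. DUSP1, DUSP4 and DUSP5 act mainly in the nucleus, DUSP1 preferring p38 and JNK and DUSP5 ERK, whereas DUSP6 acts on ERK in the cytoplasm. SPRY2, a Sprouty protein, restrains signalling between receptor tyrosine kinases and RAS. FRS2 is of the opposite kind, an adaptor that couples FGF and neurotrophin receptors to GRB2 and the phosphatase SHP2 and so passes the signal on, and FRS2 is itself a target of feedback phosphorylation by ERK. Transcript levels do not measure phosphatase activity or phosphorylated kinases.

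These 6 genes, DUSP1, DUSP4, DUSP5, DUSP6, SPRY2 and FRS2, were chosen by name with earlier results of these data known. The shares of all tested genes set beside their counts are therefore a description only. All 6 were found among the 11943 genes of the tables. They passed the filter on low values (a mean of at least 1 FPKM in at least 1 group), which left 10982 genes. They were followed in HMC3, an established human microglial cell line labelled wild type, by RNA-seq after recombinant human POSTN (rhPOSTN, periostin, a matricellular ligand of integrins) in 3 libraries and after PBS, the vehicle, in 3 libraries. One dose and one treatment time were used, and separate cultures are not stated for the libraries of a group. The p-values therefore cover only the variation among these 6 libraries, which may be technical. Levels are in FPKM, fragments normalized to transcript length and to the library's mapped total, which allow levels to be compared between genes. Read counts are not part of the tables, so the sequencing depth is unknown and counting error cannot be stated. In a bulk culture, fewer cells of one kind and less RNA per cell cannot be told apart.

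PBS library 3 stood apart. Its correlation with the other libraries across tested genes ranged from 0.913 to 0.940, against 0.973 to 0.983 among the other 5, and the 13 mitochondrially encoded genes made up 1.48% of its summed FPKM, against 4.95% to 7.77% in the rhPOSTN libraries and 7.02% and 7.36% in PBS libraries 1 and 2. The difference of each of the 6 genes is therefore also given without PBS library 3. Of 13 markers of microglia and myeloid cells, 4 were listed. The summed FPKM of CD68, TREM2 and CD14 ranged from 15.6 to 19.9 after rhPOSTN and from 10.3 to 20.6 after PBS, with the lowest sum in PBS library 3. P2RY12, CX3CR1 and TMEM119 were not analysed here. Of 5 fibroblast and pericyte markers 4 were listed (COL1A1, COL1A2, PDGFRB and ACTA2), with a summed FPKM from 116 to 150 after rhPOSTN and from 111 to 338 after PBS. COL1A1, a collagen, made up most of this sum. It was at 99.9 to 135 FPKM in the rhPOSTN libraries, at 108 and 98.3 in PBS libraries 1 and 2 and at 324 in PBS library 3. COL1A2 was low, at 0.383 to 0.572 FPKM after rhPOSTN and 0.305 to 1.355 FPKM after PBS, and fell under the filter. Of 4 astrocyte and 3 neuron markers 1 each was listed, SLC1A3 and SNAP25. The part of these differences in the results was not tested.

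The promoter sequences of DUSP1, DUSP6 and FRS2 are shown for the contrasts described below. DUSP1 was the most abundant of the 6, DUSP6 is an enzyme of the same family at a far lower level, and FRS2 had the largest difference between groups in size. The sequences are those of RefSeq on GRCh38.p14, from 250 bases before to 50 bases after the annotated start, on the strand of the gene, and 4 of the 6 genes matched an entry. The coordinates are chr5:172771146-172771445 (minus strand) for DUSP1, chr12:89352452-89352751 (minus strand) for DUSP6 and chr12:69470138-69470437 (plus strand) for FRS2, whereas all other coordinates in the text are on GRCh37, the build of the deposited tables. Capitals mark matches, on either strand, to 6 motifs, namely the cAMP response element TGACGTCA, the E box CACGTG, the TATA box TATAAA, the GC box GGGCGG, the ETS motif CCGGAAG and the AP-1 motif TGACTCA.
DUSP1: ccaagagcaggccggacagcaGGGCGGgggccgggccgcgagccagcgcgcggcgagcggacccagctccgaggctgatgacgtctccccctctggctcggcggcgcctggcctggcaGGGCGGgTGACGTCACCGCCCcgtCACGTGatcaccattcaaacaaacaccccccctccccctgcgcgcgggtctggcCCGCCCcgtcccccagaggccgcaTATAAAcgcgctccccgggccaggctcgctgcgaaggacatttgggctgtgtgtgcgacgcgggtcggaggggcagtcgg
DUSP6: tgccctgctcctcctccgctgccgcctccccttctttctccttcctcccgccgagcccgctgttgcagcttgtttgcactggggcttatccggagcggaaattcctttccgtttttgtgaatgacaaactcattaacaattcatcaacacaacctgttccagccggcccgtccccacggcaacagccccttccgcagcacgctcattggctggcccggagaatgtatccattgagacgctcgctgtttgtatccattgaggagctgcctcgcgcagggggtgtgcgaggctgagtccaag
FRS2: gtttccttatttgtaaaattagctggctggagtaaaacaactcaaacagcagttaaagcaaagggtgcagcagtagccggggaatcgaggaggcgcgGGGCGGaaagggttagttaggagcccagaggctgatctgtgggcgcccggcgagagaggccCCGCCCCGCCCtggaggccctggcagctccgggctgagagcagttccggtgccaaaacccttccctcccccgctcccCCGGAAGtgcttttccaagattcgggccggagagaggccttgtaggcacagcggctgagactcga

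The DUSP1 promoter held 1 cAMP response element, whose first base lay 125 bases before the start, 1 E box at 108 bases, 1 TATA box at 30 bases and 4 GC boxes. Of all 35116 promoters of this length in the table, 1.85% held the cAMP response element, 7.26% the E box, 11.5% the TATA box and 45.0% the GC box. The FRS2 promoter held 3 GC boxes, of which 2 overlapped each other, and 1 ETS motif 15 bases before the start, a motif present in 10.3% of promoters. The DUSP6 window held 0 of the 6 motifs, and the AP-1 motif, present in 4.95% of all promoters, was in none of the 3 windows. Of the 300 bases, G and C made up 73.3% in DUSP1, 61.0% in FRS2 and 58.3% in DUSP6. These matches describe the letters of the windows and were not tested for binding.

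In the HMC3 libraries the 6 genes fell into levels that were far apart. DUSP1 ranked first and DUSP5 second among the 6 in every library. DUSP1 lay above 85.6% to 88.7% of all listed genes and DUSP5 above 66.4% to 79.3%. DUSP4, DUSP6 and SPRY2 were all between 2.23 and 3.39 FPKM, above 24.8% to 32.3% of listed genes, and they changed places between libraries, so that their order was not distinguishable from the spread. FRS2 ranked last in all 3 rhPOSTN libraries and in PBS library 3 but held rank 3 in PBS libraries 1 and 2. DUSP1 made up 56.5% ± 2.10 of the summed FPKM of the 4 phosphatases after rhPOSTN and 57.8% ± 5.64 after PBS (SD, n = 3 libraries each). DUSP5 made up 31.4% ± 1.79 after rhPOSTN and 30.1% ± 5.35 after PBS. The level of DUSP1 was 8.47 to 12.3 times that of DUSP6 in the rhPOSTN libraries and 8.57 to 10.6 times in the PBS libraries.

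**Figure D1:**
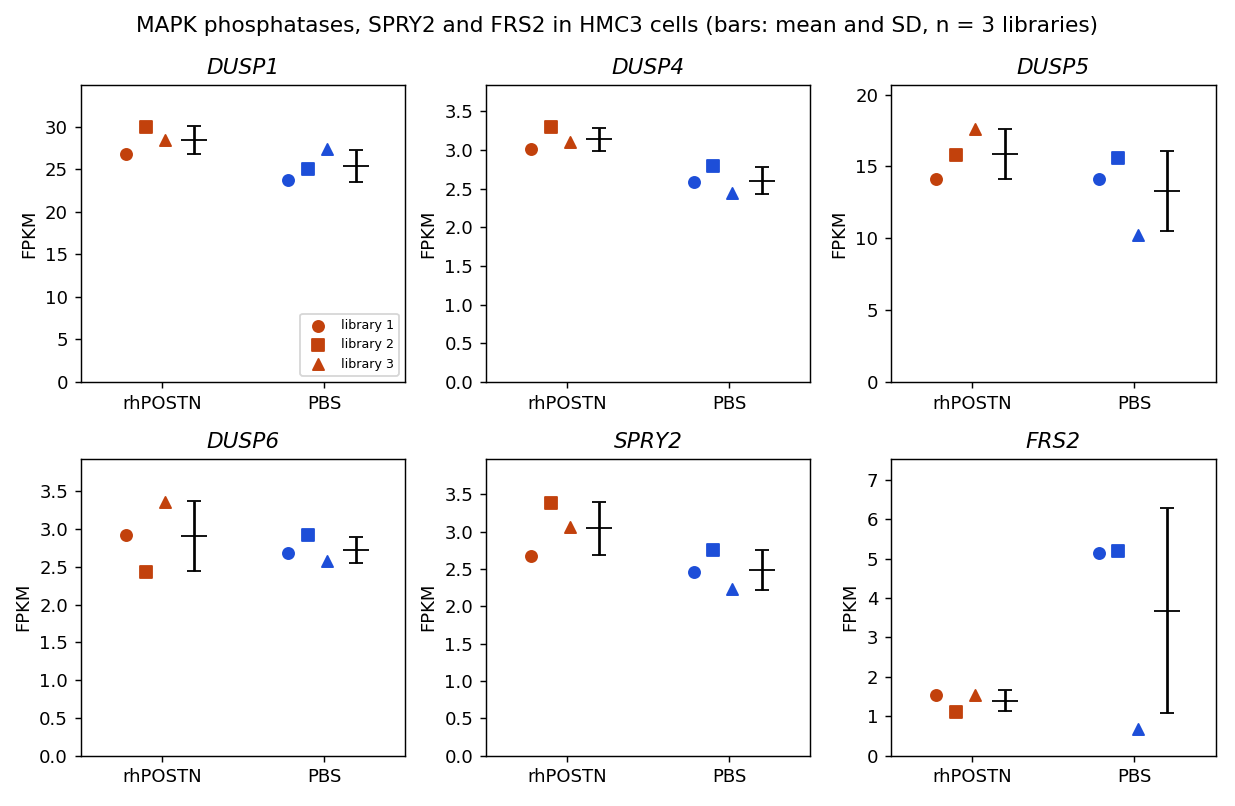
FPKM (vertical axes, from 0) of the 6 genes in each library after rhPOSTN (orange, left) and PBS (blue, right), where symbols give the library number and the bars the mean and SD of 3 libraries. The 3 rhPOSTN libraries of DUSP4 lie above all PBS libraries, and FRS2 is at 5.16 and 5.20 FPKM in PBS libraries 1 and 2 but at 0.682 FPKM in PBS library 3.

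The comparison of rhPOSTN with PBS asks whether these genes changed in microglia exposed to periostin. By limma on log2(FPKM + 1), 0 of the 6 genes passed an adjusted p of 0.05, where 0.0182% of the 10982 tested genes, 2 in all, passed, both higher after rhPOSTN. At an unadjusted p under 0.05 stood 0 of the 6, beside 2.45% of tested genes that were higher and 0.765% that were lower. The log2 difference (rhPOSTN minus PBS) was positive for 5 of the 6 genes, where 63.5% of all tested genes were positive, and the median of the 6 was 0.18, against 0.06 over all tested genes. FRS2 was the 1 gene with a negative difference. Without PBS library 3, 1 of the 6, FRS2, passed the adjusted threshold, with a lower value, where 0.0638% of 10969 tested genes passed as higher and 0.0365% as lower. DUSP1 was then the 1 gene higher at an unadjusted p under 0.05 and FRS2 the 1 lower, beside 7.07% and 2.48% of tested genes, and 5 of the 6 differences were again positive, beside 58.9%.

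DUSP1, an immediate early phosphatase of p38 and JNK (ENSG00000120129.5_2, chromosome 5 from 172195093 to 172198198, minus strand), had values of 26.8, 30.0 and 28.5 FPKM in rhPOSTN libraries 1, 2 and 3, against 23.7, 25.0 and 27.4 FPKM in PBS libraries 1, 2 and 3. PBS library 3 lay above rhPOSTN library 1, so that the groups overlapped. The means were 28.4 ± 1.63 FPKM after rhPOSTN and 25.4 ± 1.85 FPKM after PBS (SD, n = 3 each), and limma gave a log2 difference of 0.16 ± 0.11 (SE; adjusted p = 0.951). Its 95% interval ran from -0.10 to 0.42. Without PBS library 3 the groups no longer overlapped, as for 20.4% of tested genes with higher values after rhPOSTN in those 5 libraries. The difference was then 0.21 ± 0.08 (SE; limma adjusted p = 0.520). Scaling by the median of ratios lowered the difference in all 6 libraries to 0.08.

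DUSP4, a nuclear inducible phosphatase (ENSG00000120875.8_2, chromosome 8 from 29190581 to 29208185, minus strand), measured 3.01, 3.30 and 3.11 FPKM in the rhPOSTN libraries, against 2.59, 2.79 and 2.44 FPKM in the PBS libraries. All 3 rhPOSTN values lay above all 3 PBS values, and this was the 1 gene of the 6 without overlap, where 8.94% of tested genes were separated in that direction. The means were 3.14 ± 0.147 FPKM after rhPOSTN and 2.60 ± 0.174 FPKM after PBS (SD, n = 3 each), a 1.20-fold difference. Limma gave a log2 difference of 0.20 ± 0.10 (SE; adjusted p = 0.951), with a 95% interval from -0.051 to 0.45. The exact permutation p (two-sided) was 0.1, which is the lower limit for groups of this size. Leaving out PBS library 3 made the difference 0.17 ± 0.09 (SE; limma adjusted p = 0.576).

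DUSP5, a nuclear phosphatase of ERK (ENSG00000138166.5_2, chromosome 10 from 112257596 to 112271302, plus strand), measured 14.2, 15.8 and 17.6 FPKM in the rhPOSTN libraries, against 14.1, 15.6 and 10.2 FPKM in the PBS libraries. PBS libraries 1 and 2 lay within or just below the rhPOSTN range, and PBS library 3 was the low one. The log2 difference of 0.25 ± 0.18 (SE; limma adjusted p = 0.951) was the largest positive one of the 6, and it was 0.09 ± 0.11 without PBS library 3 (limma adjusted p = 0.803). The means of all libraries were 15.8 ± 1.73 FPKM after rhPOSTN and 13.3 ± 2.77 FPKM after PBS (SD, n = 3 each).

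DUSP6, the cytoplasmic phosphatase of ERK (ENSG00000139318.7_2, chromosome 12 from 89741009 to 89747048, minus strand), measured 2.92, 2.44 and 3.37 FPKM in the rhPOSTN libraries, against 2.68, 2.92 and 2.58 FPKM in the PBS libraries. The rhPOSTN libraries spanned the whole PBS range, with both the highest and the lowest value. Limma gave a log2 difference of 0.06 ± 0.13 (SE; adjusted p = 0.959), with a 95% interval from -0.24 to 0.37. On the fold scale of FPKM + 1 that interval runs from 0.845 to 1.29. Without PBS library 3 the difference was 0.03 (limma adjusted p = 0.933).

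SPRY2 (ENSG00000136158.11_3, chromosome 13 from 80910111 to 80915086, minus strand), which restrains RAS activation, reached 2.68, 3.39 and 3.06 FPKM in the rhPOSTN libraries, against 2.46, 2.76 and 2.23 FPKM in the PBS libraries. PBS library 2 lay above rhPOSTN library 1, so that the groups overlapped. The means were 3.04 ± 0.356 FPKM after rhPOSTN and 2.49 ± 0.264 FPKM after PBS (SD, n = 3 each), and limma gave a log2 difference of 0.21 ± 0.12 (SE; adjusted p = 0.951), or 0.16 ± 0.11 without PBS library 3 (limma adjusted p = 0.646).

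Summed over DUSP1, DUSP4, DUSP5 and DUSP6, the phosphatases were at 46.9, 51.5 and 52.6 FPKM in rhPOSTN libraries 1, 2 and 3, against 43.1, 46.3 and 42.6 FPKM in the PBS libraries. The lowest rhPOSTN sum lay just above the highest PBS sum, where 8.94% of single tested genes were higher after rhPOSTN without overlap. DUSP1 and DUSP5 made up most of the sum, and each overlapped between the groups, as did DUSP6. The sum is given as a description only.

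**Figure D2:**
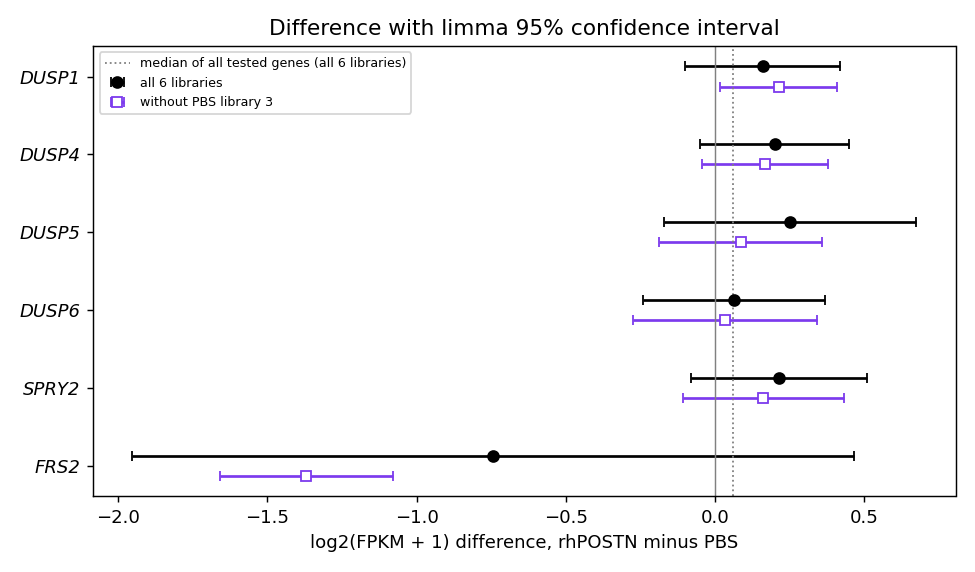
Difference of log2(FPKM + 1), rhPOSTN minus PBS (horizontal axis), for the 6 genes, with limma 95% confidence intervals for all 6 libraries (filled circles) and without PBS library 3 (open squares). With all libraries every interval includes 0, and without PBS library 3 the interval of FRS2 runs from -1.66 to -1.08 and that of DUSP1 from 0.016 to 0.41, while the other 4 still include 0.

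FRS2 (ENSG00000166225.8_3, chromosome 12 from 69864129 to 69973569, plus strand), the adaptor, measured 1.55, 1.10 and 1.55 FPKM in the rhPOSTN libraries, against 5.16, 5.20 and 0.682 FPKM in PBS libraries 1, 2 and 3. PBS libraries 1 and 2 were nearly equal and far above the rhPOSTN libraries, whereas PBS library 3 was the lowest of all 6, so that the groups overlapped. Over all 6 libraries limma gave a log2 difference of -0.74 ± 0.50 (SE; adjusted p = 0.951), and its 95% interval was wide, from -1.95 to 0.46. Without PBS library 3 the mean after rhPOSTN was 0.270 times that after PBS, and the log2 difference of -1.37 ± 0.12 (SE) passed (limma adjusted p = 0.0445). FRS2 was 1 of 4 genes that passed as lower in those 5 libraries. FRS2 missed the threshold in every fit that kept PBS library 3 at full weight, and without PBS library 1 or 2 its difference was -0.43 in either case. Library weights, which gave PBS library 3 a weight of 0.0838, left FRS2 past the threshold (limma adjusted p = 0.0306), where 0.337% of tested genes passed.

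The gap between PBS library 3 and PBS libraries 1 and 2 set FRS2 apart from the other 5 genes. On the log2(FPKM + 1) scale it was -1.88 for FRS2, and 0.792% of tested genes had a gap at least as large in either direction. It was -0.50 for DUSP5, -0.16 for SPRY2, -0.10 for DUSP4, -0.09 for DUSP6 and 0.16 for DUSP1, where the median absolute gap of all tested genes was 0.38. Of the tested genes, 5 were in both PBS libraries 1 and 2 at no less than 2 times their value in every other library, a pattern defined after the values of FRS2 had been seen. Among them were FRS2, BCL2L11 (the pro-apoptotic BIM), SPIN1 (a histone reader) and ZBED6 (derived from a DNA transposon). BCL2L11 was at 1.06, 0.250 and 0.764 FPKM in the rhPOSTN libraries, against 2.41, 3.18 and 0.461 FPKM in the PBS libraries. The opposite pattern, with PBS libraries 1 and 2 at no more than the inverse of that factor, was found in 8 genes.

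How the values per gene were built differs between the 6. GENCODE release 29, on GRCh38, annotates 11 transcripts for FRS2, 5 for DUSP6, 2 each for DUSP4, DUSP5 and SPRY2, and 1 for DUSP1, and StringTie divides reads among the transcripts of a gene. None of the 6 genes overlapped another gene of the tables. In GENCODE, antisense transcripts overlap DUSP1 (AC022217.3) and DUSP6 (AC024909.2), and use of the strand in counting is not stated. The part of the transcript number in the spread of FRS2 was not tested.

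Genes with the most similar profile over the 6 libraries were sought by Pearson's r of log2(FPKM + 1), as a description over 6 points that share their libraries and their scaling. For FRS2 they were TMEM43 and TFRC, the transferrin receptor (r = 0.990 for each), but TFRC moved over a far narrower range, with 47.8, 45.9 and 47.5 FPKM in the rhPOSTN libraries, against 53.6, 55.8 and 44.8 FPKM in the PBS libraries. For DUSP1 they were GPR173 and ZP3 (0.994 and 0.991), for DUSP4 NEK8 and DNAJC28 (0.995 and 0.994) and for SPRY2 CLIC3 and THAP5 (0.992 and 0.989). For DUSP5 they were DCAF10 and C1QL1 (0.998 and 0.996), and for DUSP6 SULT1A4 and FBXO32 (0.964 and 0.962). An r over 0.95 was reached by 461 tested genes for DUSP5 but by 5 for DUSP6, and by 33 to 66 for the other 4 genes.

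The close relatives of these genes were also followed. Of 6 other MAP kinase phosphatases 5 were tested, and by limma 0 passed, with 0 at an unadjusted p under 0.05. DUSP8, a phosphatase of JNK and p38, was at 1.44, 1.28 and 1.58 FPKM in the rhPOSTN libraries, against 1.02, 1.21 and 1.09 FPKM in the PBS libraries (log2 difference 0.21, limma adjusted p = 0.951). DUSP7, the relative of DUSP6, was at 2.72, 2.68 and 2.78 FPKM in the rhPOSTN libraries, against 2.44, 2.65 and 1.73 FPKM in the PBS libraries. The log2 difference of DUSP7 was 0.20 (limma adjusted p = 0.951), and 0.07 without PBS library 3. The groups of DUSP7 and DUSP8 did not overlap, beside 8.94% of tested genes that were higher without overlap. DUSP10 had the largest log2 difference of these 5, 0.37, with 4.08 to 6.38 FPKM after rhPOSTN and 2.72 to 4.55 after PBS, which overlap, and it was 0.19 without PBS library 3. DUSP16 had a difference of 0.16 and DUSP9 of -0.09, and DUSP9 turned to 0.06 without PBS library 3. The median of the 5 was 0.20 and fell to 0.10 without PBS library 3, beside medians over all tested genes of 0.06 and 0.03.

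Among 7 tested atypical dual-specificity phosphatases, which lack the MAP kinase docking domain, 0 passed by limma and 1, DUSP19, had an unadjusted p under 0.05, beside 2.45% of tested genes that were higher at that level. DUSP19 was at 1.40, 1.22 and 1.41 FPKM in the rhPOSTN libraries, against 1.13, 0.921 and 0.617 FPKM in the PBS libraries, without overlap, as for 8.94% of tested genes (log2 difference 0.32, limma adjusted p = 0.951, and 0.21 without PBS library 3). DUSP3 was at 9.98 to 12.4 FPKM after rhPOSTN, at 9.89 and 9.29 in PBS libraries 1 and 2 and at 39.6 in PBS library 3, so that its difference of -0.45 turned to 0.20 without that library. DUSP22 and DUSP12 had differences of -0.30 and -0.07, and DUSP11, DUSP14 and DUSP23 of 0.17, 0.07 and 0.0046. Without PBS library 3 DUSP12 turned to 0.04 and DUSP14 to -0.17, DUSP11 was at 0.01 and DUSP23 at 0.26. DUSP22 was at -0.31 without PBS library 3 and at -0.05 without PBS library 2.

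In the family of adaptors around SPRY2 and FRS2, single libraries moved further than the groups. Of 7 relatives 4 were tested, and 0 passed by limma, with 0 at an unadjusted p under 0.05. All 4 differences were positive with all libraries and 1 of 4 without PBS library 3. SPRY4, another Sprouty gene, was at 1.89, 1.74 and 0.0646 FPKM in rhPOSTN libraries 1, 2 and 3, against 1.84, 1.64 and 0.0477 FPKM in PBS libraries 1, 2 and 3. Library 3 of each group was thus the low one, and the groups were otherwise alike (log2 difference 0.03, 95% interval from -1.22 to 1.29, and -0.43 without PBS library 3). FRS3, the paralogue of FRS2, was at 3.90, 4.63 and 1.10 FPKM in the rhPOSTN libraries, against 1.19, 0.755 and 4.13 FPKM in the PBS libraries. FRS3 was high in rhPOSTN libraries 1 and 2 and in PBS library 3 and low in the other 3, a pattern that did not follow the treatment (log2 difference 0.52 ± 0.52, limma adjusted p = 0.951, and 0.98 without PBS library 3). SPRED2, an inhibitor of RAF activation, was at 6.24, 6.29 and 7.46 FPKM in the rhPOSTN libraries, against 7.88, 8.10 and 3.03 FPKM in the PBS libraries, and its difference of 0.15 turned to -0.23 without PBS library 3. SPRED1 lay between 4.10 and 5.69 FPKM in all 6 libraries, and its difference of 0.05 turned to -0.08 without PBS library 3.

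**Figure D3:**
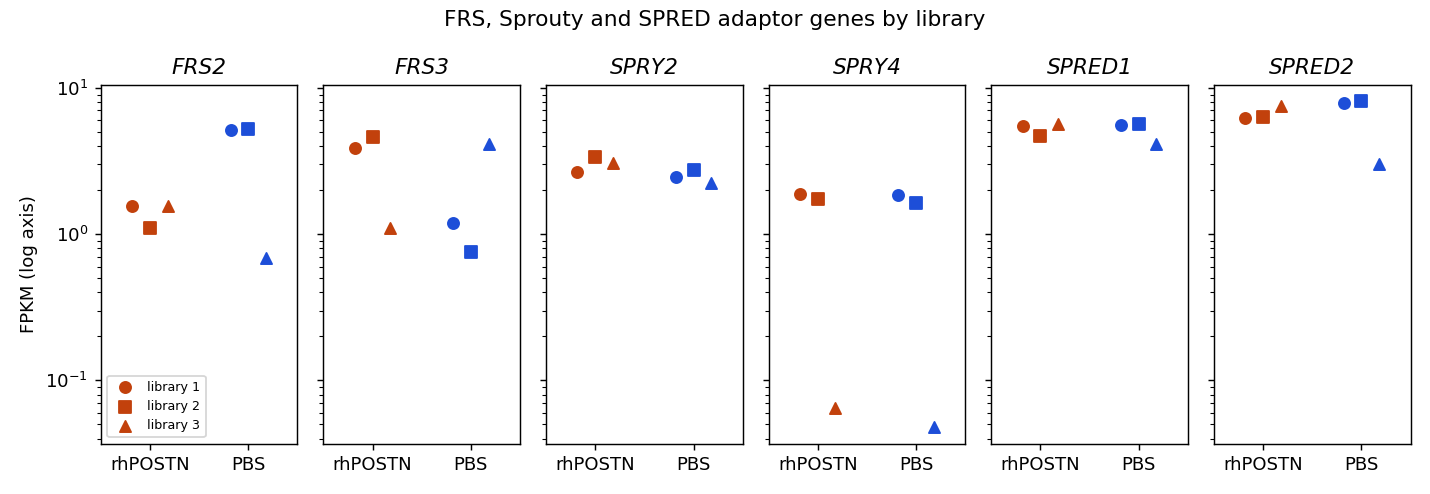
FPKM on a log axis of 6 adaptor genes in each library after rhPOSTN (orange, left) and PBS (blue, right), where symbols give the library number. SPRY4 is at 0.0646 and 0.0477 FPKM in library 3 of each group, FRS3 is high in rhPOSTN libraries 1 and 2 and PBS library 3, and FRS2 is high in PBS libraries 1 and 2.

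The remaining lists place these genes in their pathway, and in each of them limma called 0 members, both over the 6 libraries and after removal of PBS library 3. Many of the differences moved with PBS library 3, and their positive counts stand beside 63.5% of all tested genes with all libraries and 58.9% without it. In the cascade from RAS to ERK 15 of 23 tested members had a positive difference (median 0.06), with SOS1 at 0.35 and GAB1, a docking protein, at 0.27, and KSR1 at -0.39 and HRAS at -0.23, and 0 had an unadjusted p under 0.05. In the 5 libraries left without PBS library 3, 13 of 22 were positive (median 0.02), SOS1 was at 0.02 and GAB1 at 0.11, and KSR1 fell under the filter. HRAS reached 54.0 FPKM in PBS library 3, the other 5 libraries lying between 18.8 and 24.2, and its difference turned to 0.25 without it. Of 12 receptors that use FRS2 or ERK, 9 were positive (median 0.07), with IGF1R at 0.45 and ERBB3 at 0.30, and AXL at -0.18 and FGFR4 at -0.11, and 0 had an unadjusted p under 0.05. After removal of PBS library 3, 8 of 12 were positive (median 0.15), IGF1R was at 0.14, AXL at -0.050 and ERBB3 at 0.31, and FGFR4 turned to 0.25. FGFR1, a receptor that binds FRS2, was at 3.26, 3.07 and 3.32 FPKM in the rhPOSTN libraries, against 3.25, 3.24 and 3.07 in the PBS libraries. Among 5 tested FGF ligands, FGF18 was at 1.92, 1.55 and 2.07 FPKM after rhPOSTN, against 1.23, 1.29 and 1.26 FPKM after PBS, the 1 member at an unadjusted p under 0.05 (log2 difference 0.33, limma adjusted p = 0.951). Its difference was 0.33 without PBS library 3 as well, and 2.45% of tested genes were higher at that unadjusted level. FGF1 had a difference of 0.14, which turned to -0.01 without PBS library 3, and FGF11 of -0.46, which was -0.08 without rhPOSTN library 1. The median of the 5 was 0.14 and turned to -0.12 without PBS library 3, with 1 of 5 then positive.

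Of 11 tested other negative regulators of RAS and ERK, 8 had a positive difference (median 0.07, 0 at an unadjusted p under 0.05). CBL, a ubiquitin ligase, and RASA2 had differences of 0.63 and 0.28, and RASAL2 and PPP2R1A of -0.47 and -0.13. When PBS library 3 was left out, 4 of 11 were positive (median -0.05), with RASA2 at 0.03 and PPP2R1A at 0.01. CBL was then at 0.72 and RASAL2 at -0.58, and RASAL2 was at -0.20 without PBS library 2. CBL varied widely, from 4.92 to 11.5 FPKM after rhPOSTN and from 2.11 to 8.48 after PBS, and its difference was 0.19 without PBS library 1. In the p38 and JNK cascades, where DUSP1 acts, 10 of 15 tested members were positive (median 0.07, 0 at an unadjusted p under 0.05). MAPK9, which encodes JNK2, had a difference of 0.51 and MAP3K1 of 0.28, and MAPK14, which encodes p38α, of -0.42 and MAP2K3 of -0.22. MAPK9 stood at 4.91 FPKM in PBS library 3, the other 5 libraries lying between 11.1 and 13.1, and its difference was 0.16 without that library. With PBS library 3 left out, 7 of 15 were positive (median -0.01), MAP3K1 was at 0.11 and MAP2K3 at -0.10, whereas MAPK14 was at -0.54, and at -0.05 without PBS library 2.

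Tested genes that ERK signalling is known to induce did not share one direction. Of 26 such genes 21 were listed, and of these EGR1, FOS and ETV1 fell under the filter. Each lay under 1 FPKM in every library and is left out of the counts. FOS and ETV1 were higher after rhPOSTN without overlap, beside 8.94% of tested genes, and EGR1 overlapped. Of 18 tested ERK target genes 8 had a positive and 10 a negative difference (median -0.04), and 1 had an unadjusted p under 0.05, SPHK1, which was lower, as were 0.765% of tested genes at that level. In the remaining 5 libraries without PBS library 3, 10 of 18 were positive (median 0.02), with 2 higher and 2 lower at an unadjusted p under 0.05, beside 7.07% and 2.48% of tested genes. SPHK1, the kinase that forms sphingosine 1-phosphate, was at 7.06, 7.19 and 4.98 FPKM in the rhPOSTN libraries, against 19.2, 17.7 and 18.2 FPKM in the PBS libraries, without overlap, as for 2.76% of tested genes in that direction (log2 difference -1.40, limma adjusted p = 0.152). It passed with library weights (limma adjusted p = 0.00897). EPHA2 and PHLDA2 had differences of 0.21 and 0.16, and PLAUR, the urokinase receptor, of -0.45. They were at 0.27, 0.03 and -0.27 without PBS library 3. The ETS factors ETV4 and ETV5, which often rise and fall with DUSP6 and SPRY genes, had differences of -0.08 and 0.09, and of -0.21 and -0.10 without PBS library 3.

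**Figure D4:**
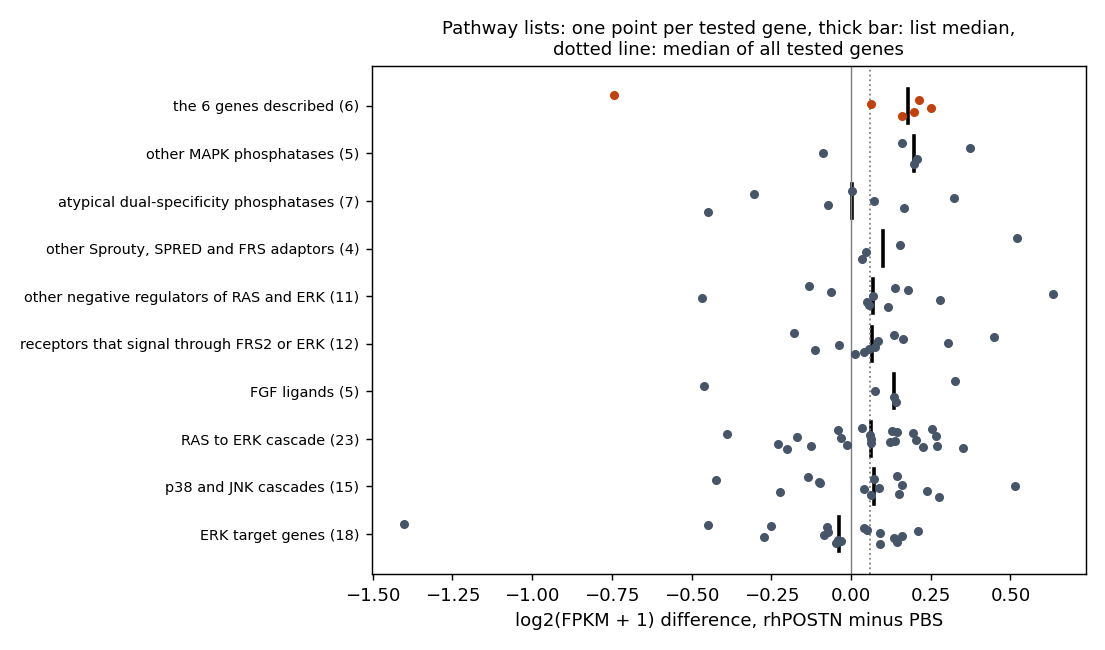
Difference of log2(FPKM + 1), rhPOSTN minus PBS, of each tested gene (1 point) in the 6 genes described and 9 related lists, where thick bars are list medians, the dotted line the median of all tested genes and numbers in brackets the tested members. List medians lie between -0.04 for the ERK target genes and 0.20 for the other MAP kinase phosphatases, and the far left points are SPHK1 and FRS2.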

How the data were processed

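RNA-seq libraries of HMC3 cells treated with rhPOSTN or PBS were compared, 3 per group, grouped by the treatment label. According to the methods, the authors enriched mRNA, built stranded libraries (KAPA), removed adapters with Cutadapt, aligned reads with HISAT2, estimated abundance with StringTie and obtained FPKM per gene with Ballgown. The labels also name rRNA removal as an alternative. GRCh37 is the build in the submitters' processing notes, and the methods name Cutadapt, HISAT2, StringTie and Ballgown without versions. Each deposited value is an FPKM per gene and library, which is normalized to length and to mapped fragments and keeps no depth. The rhPOSTN table names no unit, and FPKM was taken from the PBS table and the methods. The number of unused value columns was 0.

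Genes with a mean of at least 1 FPKM in at least 1 group were tested (10982 of 11943) on log2(FPKM + 1) with limma 3.58.1 in R 4.3.3 (eBayes with trend, no covariate), with Benjamini-Hochberg adjustment over all tested genes at 0.05. The log2(FPKM + 1) scale understates the change of low genes. The fit was also run on simulated data with independent noise and no outlying library, which cannot show how the fit behaves with PBS library 3. The 6 genes and the 14 other lists were chosen with earlier results of these data known. Of 171 list entries 135 were listed, and the rest were not analysed here. Named were the 6 genes, their tested paralogues, per list the members past the threshold and the 2 largest differences in each direction, and the 2 most similar profiles per gene. BCL2L11, SPIN1, ZBED6, FGFR1, ETV4, ETV5, EGR1, FOS and ETV1 fall outside this rule and were chosen with their values known. Alternatives were other pseudocounts (0.1, 5), filters (none, 5 FPKM), scalings, moderation and library weights, a block for the library number, and the removal of each library. A further 2 were added after seeing the data, scaling without mitochondrially encoded genes and scaling by the median of ratios without PBS library 3.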

Additional observations from a re-analysis of the deposited data

How the results depend on the processing

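No alternative called DUSP1, DUSP4, DUSP5, DUSP6 or SPRY2, and the log2 differences of DUSP1, DUSP4, DUSP5 and SPRY2 stayed positive in every fit run. The same held for DUSP7, DUSP8, DUSP10, DUSP16 and DUSP19. All fits draw on the same libraries, and 63.5% of tested genes were positive with all of them. The share of all tested genes that kept a positive sign in every fit was not computed. The log2 difference of DUSP6 turned to -0.020 without rhPOSTN library 3 and to -0.0012 without PBS library 3 with scaling by the median of ratios, and the cause was not tested. The log2 difference of FRS2 stayed negative and passed with library weights (-1.33), without PBS library 3 (-1.37) and without PBS library 3 with scaling by the median of ratios (-1.40), where the omitted or down-weighted library had the lowest value. With 1 library left out, the differences ranged from 0.11 to 0.21 for DUSP1, 0.17 to 0.24 for DUSP4, 0.09 to 0.37 for DUSP5, -0.020 to 0.15 for DUSP6, 0.15 to 0.28 for SPRY2 and -1.37 to -0.43 for FRS2. The filter at 5 FPKM left out DUSP4, DUSP6, SPRY2 and FRS2. The count of genes called, 2 with all libraries, was 1 with a pseudocount of 0.1, with the filter at 5 FPKM and with the library number as replicate block, 37 with library weights, 9 without PBS library 3 with scaling by the median of ratios, and 1 to 11 with 1 library left out. Of the ERK target genes 1 was called with library weights. The median difference of all tested genes was 0.06, and -0.0089 after scaling by the median of ratios. Libraries with the same number shared no pairing in the labels, and the deviations of same-numbered libraries correlated at -0.044, -0.19 and -0.42. The block is given only here and changed no call among the 6 genes, of which 0 were called with all libraries at full weight. The FPKM tables hold no depth, and 3 libraries per group limit what can be called.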
